A study of Homo sapiens with 6 samples.

Results

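The integrated stress response genes described here are ATF4, ATF3, DDIT3, DDIT4, CHAC1, TRIB3, ASNS, SESN2, PSAT1 and STC2, 10 of the 60240 genes in the deposited count table. They were selected by symbol as ATF4 with known targets of the response, together with DDIT4 and STC2, at a time when LSD1 KO against WT values of these data were known. For that reason their LSD1 KO against WT differences are given as a description, without a test. RNA-seq was performed on HCT116 cells, a human colorectal carcinoma cell line, with 3 WT libraries and 3 LSD1 KO libraries (replicates 1, 2 and 3 of each group), and the labels name no stress treatment. LSD1 is the histone H3K4 demethylase encoded by KDM1A, and the KO was made with CRISPR/Cas9 aimed at the first exon of the gene, followed by expansion of individual clones. How many clones the 3 LSD1 KO libraries stand for, and whether libraries of a group came from separate cultures, is not given in the sources used here, so p-values measure only the spread between these libraries, which may be technical. The methods state in general terms that experiments had biological replicates, without naming the libraries used here.

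In the integrated stress response, kinases that sense amino acid shortage, unfolded protein, viral RNA or loss of heme phosphorylate the initiation factor eIF2alpha. General translation then drops while ATF4 mRNA is translated more, so that ATF4 is controlled to a large part at the level of its protein. ATF4 pairs with C/EBP factors on a composite DNA element and switches on genes for amino acid synthesis, amino acid import, redox balance and, under lasting stress, cell death. DDIT4, also called REDD1, restrains mTORC1 and is induced by ATF4 but also by low oxygen, glucocorticoids, energy shortage and DNA damage.

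DDIT4 stood apart from the other 9 genes. Its mean in LSD1 KO cells was 2.08-fold the WT mean, and it was higher in LSD1 KO in each of the 3 same-numbered pairs of libraries. By contrast, 8 of the 10 genes had a negative log2 fold change, beside 49.9% of all genes tested. The means of these 8 in LSD1 KO cells lay between 62.4% of WT for CHAC1 and 93.2% for DDIT3. The median log2 fold change was -0.27 over the 10 genes and 0.00082 over the 17672 genes tested.

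The promoters of DDIT4, CHAC1 and ASNS are shown. DDIT4 was higher in LSD1 KO in all 3 pairs, and CHAC1 and ASNS were among those with a lower mean. Each sequence also holds a match to an element known from the stress responses these genes answer to. They were picked with the directions known, and whether a match goes with the direction of a gene was not tested. Sequences are from RefSeq (GRCh38.p14), run in the direction of the gene and end at the base before the transcription start, which is position -1. The capitals in ASNS (gene strand) and CHAC1 (opposite strand) mark a match to TGATGNAA, the core of the composite element bound by ATF4 with a C/EBP factor, and in DDIT4 a match to ACGTG, the core of the element bound by hypoxia-inducible factors. The 3 windows lie at chr10:72273674-72273923 on the plus strand (DDIT4), chr15:40953221-40953470 on the plus strand (CHAC1) and chr7:97872409-97872528 on the minus strand (ASNS).
DDIT4: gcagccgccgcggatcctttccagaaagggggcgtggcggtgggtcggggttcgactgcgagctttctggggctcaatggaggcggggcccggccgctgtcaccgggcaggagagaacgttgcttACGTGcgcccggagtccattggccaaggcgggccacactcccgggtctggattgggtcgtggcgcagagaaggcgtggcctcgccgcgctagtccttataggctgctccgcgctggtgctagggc
CHAC1: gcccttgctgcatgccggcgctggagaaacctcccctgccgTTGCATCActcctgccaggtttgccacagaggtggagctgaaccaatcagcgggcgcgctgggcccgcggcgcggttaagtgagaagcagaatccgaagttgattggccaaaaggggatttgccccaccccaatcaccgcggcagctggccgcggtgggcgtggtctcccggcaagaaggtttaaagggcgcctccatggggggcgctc
ASNS: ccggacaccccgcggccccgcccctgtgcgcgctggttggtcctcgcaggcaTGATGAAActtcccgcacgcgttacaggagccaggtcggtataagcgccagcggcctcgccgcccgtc

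All 10 genes had an entry in the RefSeq promoter table, with 16 transcription starts between them, some of which lie close together. In the 250 bases before the start, TGATGNAA was found on either strand in 3 of the 16 windows, 1 each of ASNS, CHAC1 and ATF3, against 3.14% of all 35116 windows in the table. In ASNS it lay from -68 to -61 on the gene strand, in CHAC1 from -209 to -202 on the opposite strand, and in ATF3 from -191 to -184 on the gene strand. The cyclic AMP response element TGACGTCA was in none of the 16 windows, against 1.65% of all windows. ACGTG was found in 3 of the 16 windows, 1 of DDIT4, from -125 to -121, and 2 overlapping windows of ATF4, against 18.5% of all windows. In ATF4 the matches on the 2 strands overlapped and formed the palindrome CACGTG. GC content of the 16 windows ran from 44.8% to 78.8%, beside a median of 58.0% for all windows. A match is a description of these letters and does not show that a factor binds there.

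Total counts ranged from 25379279 to 29186963 per library, at which 3 counts, taken as the limit of detection, correspond to 0.103 to 0.118 CPM (counts scaled to a common library size, with edgeR's TMM factors in the gene values below). All 10 genes lay far above that limit, with between 60 and 12544 counts in a library, and all 10 passed the filter on low counts. KDM1A (ENSG00000004487) was 223.1 ± 8.78 CPM (SD, n = 3) in WT and 28.4 ± 1.30 CPM (SD, n = 3) in LSD1 KO, with a q value of 0.000451 from edgeR's quasi-likelihood test. It was the 1 gene with a q value under 0.1 among 17672 tested (0.00566%) in the model without a replicate block. Same-numbered WT and LSD1 KO libraries deviated together from their group means, so LSD1 KO and WT were also compared with the replicate number in the model. This replicate block called 1.05% of all genes higher and 0.549% lower in LSD1 KO. Of 10 colorectal epithelial markers, 6 were above 3 counts in every library, whereas VIL1, CEACAM5 and LGR5 were not, and CDX1 was at 0 counts throughout. Among markers of other cells, COL1A1 carried the fibroblast sum (20.4 to 23.9 CPM in WT, 30.1 to 34.0 CPM in LSD1 KO) and CD68 the leukocyte sum (17.1 to 20.4 CPM in WT, 23.1 to 34.1 CPM in LSD1 KO), while LUM, PDGFRA and CD3E were at 0 counts in every library. The part of COL1A1- or CD68-expressing cells in the results was not tested. Fewer cells that express a gene and less RNA per cell cannot be told apart in these bulk libraries.

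DDIT4 (ENSG00000168209), on chromosome 10 from 72273924 to 72276036 (GRCh38.p14), had 55.4, 151.3 and 104.3 CPM in WT replicates 1, 2 and 3. In LSD1 KO replicates 1, 2 and 3 it had 144.2, 286.6 and 216.7 CPM. Within each group replicate 1 was lowest and replicate 2 highest, and LSD1 KO replicate 1 lay below WT replicate 2, so the groups overlapped. The group means were 103.7 ± 47.9 CPM in WT and 215.8 ± 71.2 CPM in LSD1 KO (SD, n = 3 each). Within pairs 1, 2 and 3 the log2 difference was 1.38, 0.92 and 1.05, which is more uniform than the levels themselves. The log2 fold change was 1.06 (standard error 0.37) without the replicate block and 1.12 (standard error 0.11) with it. A larger log2 fold change was found for 1.20% of all genes tested, and for 33 of the 10348 genes with a mean of at least 10 CPM. DDIT4 was chosen with this contrast known, so its place in that ranking is a description and no evidence of an unusual change. Without 1 library at a time the log2 fold change lay between 0.76 (without WT replicate 1) and 1.43 (without WT replicate 2).

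**Figure D1:**
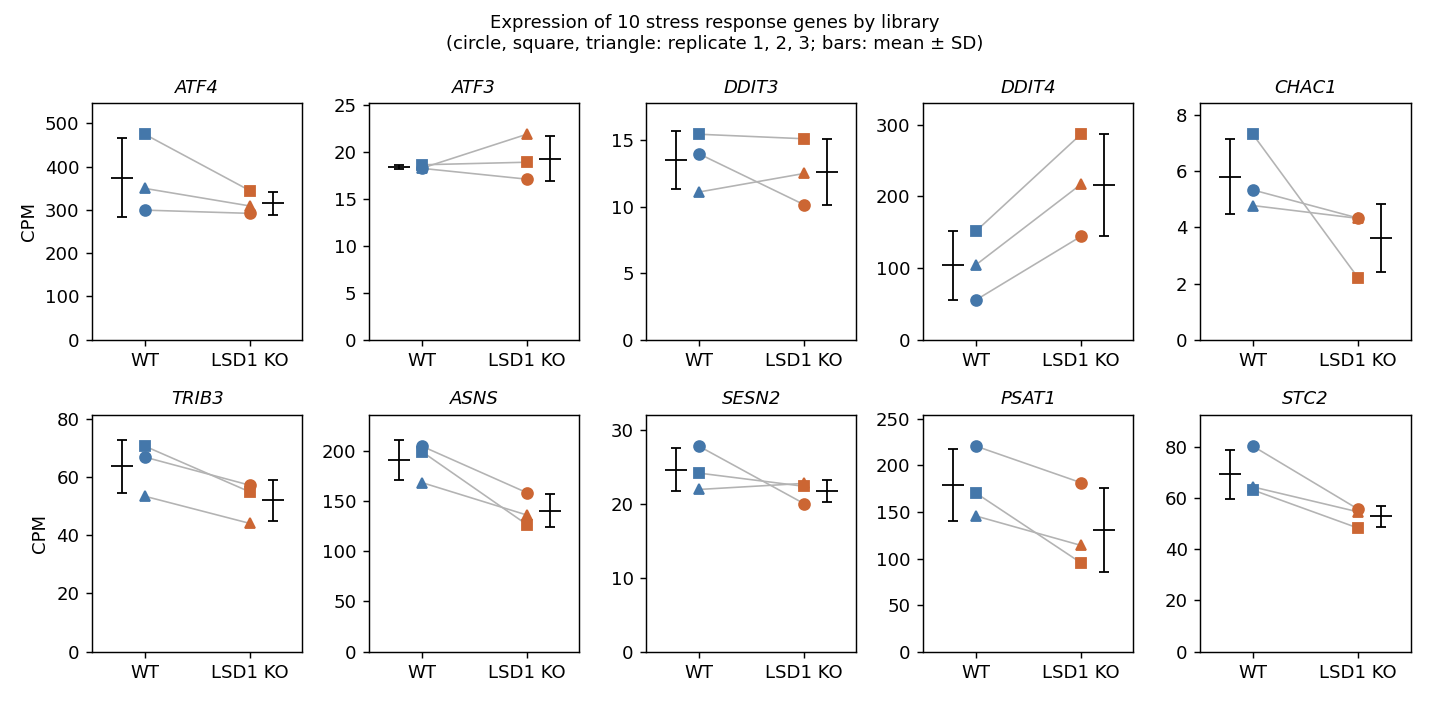
CPM of the 10 stress response genes in each library (y axes, each from 0), with WT libraries on the left and LSD1 KO libraries on the right of each panel. Symbols mark replicates 1, 2 and 3, grey lines join same-numbered libraries, and black bars give the mean ± SD (n = 3). The lines of DDIT4 climb in all 3 pairs, from 55.4 to 144.2 CPM in pair 1, while those of ATF4, CHAC1, TRIB3, ASNS, PSAT1 and STC2 go down in all 3.

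ATF4 (ENSG00000128272), the transcription factor at the centre of the response, lies on chromosome 22 from 39520559 to 39522686. Its values were 299.5, 474.8 and 349.7 CPM in WT replicates 1, 2 and 3 and 292.0, 344.5 and 309.1 CPM in LSD1 KO. The groups overlapped, and WT replicate 2 was well above the other 5 libraries. Means were 374.7 ± 90.3 CPM and 315.2 ± 26.8 CPM (SD, n = 3 each), a log2 fold change of -0.25 (standard error 0.21). It was -0.048 when WT replicate 2 was left out. ATF4 mRNA does not report on the ATF4 protein, which was not measured in these libraries.

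ATF3 (ENSG00000162772), a stress-induced factor of the same bZIP family, hardly differed between libraries. Its WT values were 18.3, 18.7 and 18.3 CPM and its LSD1 KO values 17.1, 18.9 and 21.9 CPM. The log2 fold change was 0.070 (standard error 0.17), and it turned to -0.030 without LSD1 KO replicate 3.

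DDIT3 (ENSG00000175197), which encodes CHOP, the factor linked to cell death under lasting stress, had 14.0, 15.4 and 11.1 CPM in WT and 10.2, 15.1 and 12.5 CPM in LSD1 KO. The ranges of the 2 groups nearly coincided, and the pairs differed in sign, with log2 differences of -0.46, -0.032 and 0.17. Its log2 fold change was -0.10 (standard error 0.22) and turned to 0.032 without LSD1 KO replicate 1. DDIT3 shares exon sequence on the opposite strand with MARS1, which had 4108 to 6340 counts per library, and with MBD6. Whether counting used the strand is not given in the sources used here, so reads of DDIT3 and of these neighbours may not be told apart.

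TRIB3 (ENSG00000101255) encodes a pseudokinase that is induced by ATF4 and feeds back on it. It had 66.9, 70.6 and 53.4 CPM in WT and 57.2, 54.9 and 44.1 CPM in LSD1 KO. The groups overlapped, because WT replicate 3 lay below LSD1 KO replicates 1 and 2, yet the 3 pairs were close to one another, with log2 differences of -0.23, -0.36 and -0.28. The log2 fold change was -0.29 (standard error 0.18 without the replicate block and 0.088 with it). Among the 10 genes the SD of the 3 pair differences was smallest for TRIB3, at 0.070.

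CHAC1 (ENSG00000128965), whose product degrades glutathione, was the gene with the fewest reads of the 10. WT libraries held 141, 193 and 144 counts of it, and LSD1 KO libraries 121, 60 and 114. In CPM these were 5.33, 7.31 and 4.77 in WT and 4.33, 2.21 and 4.32 in LSD1 KO. Every LSD1 KO library was below every WT library, although the lowest WT and highest LSD1 KO values were only 4.77 and 4.33 CPM. Pair 2 had a log2 difference of -1.72, against -0.30 and -0.14 in pairs 1 and 3. The log2 fold change of -0.68 (standard error 0.34) went to -0.44 without LSD1 KO replicate 2, and to -0.24 with the block when pair 2 was left out.

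SESN2 (ENSG00000130766), a leucine-sensing inhibitor of mTORC1, had 27.8, 24.2 and 21.97 CPM in WT and 20.1, 22.4 and 22.8 CPM in LSD1 KO. The groups overlapped, and the pairs differed in sign, from -0.47 in pair 1 to 0.053 in pair 3. Its log2 fold change of -0.18 (standard error 0.17) went to -0.086 without WT replicate 1, and to -0.029 with the block when pair 1 was left out.

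Of the enzymes for amino acid synthesis, ASNS (ENSG00000070669) encodes asparagine synthetase and PSAT1 (ENSG00000135069) encodes the aminotransferase of the serine pathway. ASNS had 204.5, 199.1 and 168.2 CPM in WT and 158.1, 126.4 and 135.9 CPM in LSD1 KO. Every LSD1 KO library of ASNS lay below every WT library, and the LSD1 KO mean was 73.5% of the WT mean, a log2 fold change of -0.44 (standard error 0.17). ASNS shares exons on the same strand with ENSG00000284707, which had 386 to 789 counts, and whether Salmon moved reads between the 2 genes was not tested.
PSAT1 had 220.8, 170.5 and 145.8 CPM in WT and 181.5, 95.5 and 114.1 CPM in LSD1 KO. Replicate 1 was highest in both groups, and LSD1 KO replicate 1 exceeded 2 of the WT libraries. Its log2 differences were -0.28, -0.84 and -0.35 in pairs 1, 2 and 3, and its log2 fold change was -0.46 (standard error 0.27). This became -0.29 without LSD1 KO replicate 2 and -0.77 without LSD1 KO replicate 1.

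STC2 (ENSG00000113739), a secreted glycoprotein induced by ER stress and low oxygen, had 80.3, 63.2 and 64.4 CPM in WT and 55.7, 48.3 and 54.6 CPM in LSD1 KO. The groups did not overlap, and the log2 fold change was -0.39 (standard error 0.16). STC2 and DDIT4 are both known as targets of ATF4 and of hypoxia, and in these libraries they differed between LSD1 KO and WT in opposite directions.

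In count, 6 of the 10 genes (ATF4, CHAC1, TRIB3, ASNS, PSAT1 and STC2) were lower in LSD1 KO in all 3 pairs, as were 17.5% of all genes tested. DDIT4 was higher in all 3 pairs, as were 18.8% of all genes. Every LSD1 KO library was below every WT library for 3 of the 10 (CHAC1, ASNS and STC2), beside 3.51% of all genes, and for 0 of the 10 was every LSD1 KO library above every WT library, beside 4.23% of all genes. These counts come from the contrast that was known when the genes were chosen, and nothing is read from them. Over the 9 genes other than DDIT4 the median log2 difference was -0.30 in pair 1, -0.39 in pair 2 and -0.18 in pair 3. The median over all genes, computed with 0.5 added to each CPM, was 0.011, 0 and -0.00015. Of these 9 genes, 9 were lower in LSD1 KO in pair 1, 8 in pair 2 and 6 in pair 3. The matching shares of all genes were not computed, and nothing is read from these counts either. Pseudogenes of ATF4, ASNS and PSAT1, 11 in the table, had at most 6 counts in a library.

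**Figure D2:**
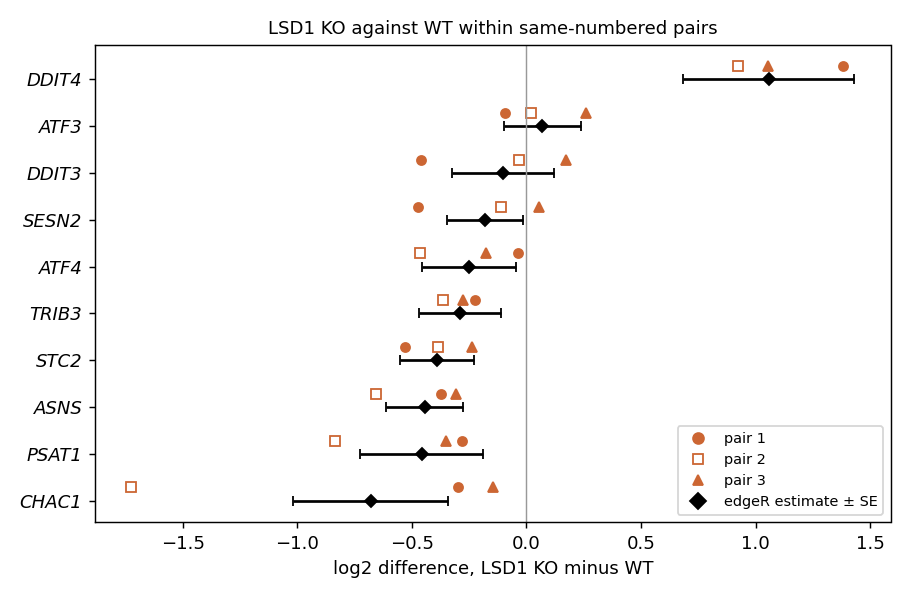
Log2 difference between LSD1 KO and WT (x axis) for each of the 10 genes (y axis), ordered by the edgeR estimate. Coloured symbols give same-numbered pairs 1, 2 and 3, and black diamonds the edgeR log2 fold change without a block with its standard error. DDIT4 is the only gene of the 10 with all 3 pairs to the right of 0, and the open square of CHAC1 at -1.72 lies far from its other pairs.

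The replicate number gave a comparison other than LSD1 KO against WT, the contrast known when the genes were chosen. It used the same 6 libraries, so it may not be independent of the earlier results of these data. With genotype in the model, edgeR's quasi-likelihood F-test of the replicate number called 41.2% of all genes tested at a q value under 0.1, and 4 of the 10 stress response genes. A share of 4 in 10 is close to that background. DDIT4 was the clearest of the 4, with replicate 2 above replicate 1 by 1.21 and replicate 3 above replicate 1 by 0.74 on the log2 scale (q value 0.00301 from edgeR), and the rank of its F statistic was within the top 1.57% of all genes. The replicate 2 to 1 difference of DDIT4 was thus about as large as its log2 fold change between LSD1 KO and WT, 1.06. It was seen in both genotypes, at 1.45 in WT and 0.99 in LSD1 KO. The change of PSAT1 ran the other way, by -0.64 in replicate 2 and -0.64 in replicate 3 relative to replicate 1 (q value 0.0174 from edgeR). ATF4 differed by 0.45 and 0.15 (q value 0.0564 from edgeR), and TRIB3 by 0.011 and -0.35 (q value 0.0555 from edgeR). The q values of the remaining 6 genes ran from 0.199 to 0.941. CHAC1 showed opposite replicate 2 to 1 differences in the 2 genotypes, 0.46 in WT and -0.97 in LSD1 KO. What the replicate numbers stand for, such as a culture day or a preparation, is not given in the sources used here.

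**Figure D3:**
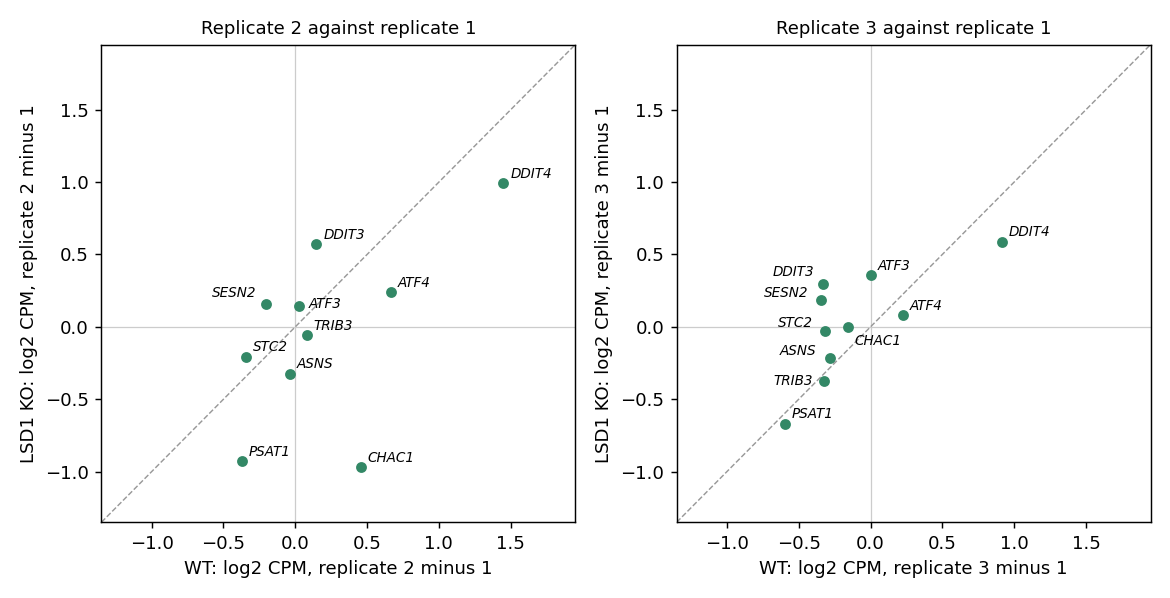
Difference in log2 CPM between replicate 2 and replicate 1 (left) and between replicate 3 and replicate 1 (right) for the 10 genes, in WT on the x axes and in LSD1 KO on the y axes. The dashed line marks equal differences in both genotypes. DDIT4 lies furthest to the upper right in both panels, at 1.45 and 0.99 in the left panel, PSAT1 lies at the lower left, and CHAC1 falls away from the line in the left panel.

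To see how other genes of the pathway behaved, 119 genes in 11 lists were examined, of which 111 were tested. In the model without the replicate block edgeR called 0 of them, with 13 at an unadjusted p under 0.05, and DESeq2's Wald test called 3 (SLC7A11, GDF15 and TRIB1). With the replicate block edgeR called 13, with 10 rises and 3 falls in LSD1 KO. Of all genes tested, that model called 1.05% higher and 0.549% lower, the shares to set beside each list below. The lists were chosen with earlier results of these data known, so the counts called in them are a description. Each of the 13 had a q value under 0.1 in 4 to 7 of 16 alternatives, and of up to 1.00 in the others. DESeq2 with the replicate block called 22, 11 higher and 11 lower, among them all of the 13 but GDF15 and NDRG1. The rises and falls below refer to edgeR with the block, and a gene is given as not called where neither edgeR model called it. Log2 fold changes of genes not called, list medians and counts of negative values are from edgeR without the block. Of the 13, SLC38A1, VEGFA, KLHL24, CRELD2 and ANKRD37 were no longer called when pair 3 was left out. All 13 were still called without pair 1 and without pair 2.

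Amino acid transporters held the largest fall. SLC7A11, the cystine importer and a well known target of ATF4, had 141.5, 75.9 and 97.3 CPM in WT and 58.9, 43.0 and 44.2 CPM in LSD1 KO. Its groups did not overlap, and it fell by 1.08 on the log2 scale (standard error 0.11, q value 0.00923 from edgeR with the replicate block). SLC38A1, a glutamine carrier, fell by 0.46 (q value 0.0536 from edgeR with the block), with WT and LSD1 KO ranges that overlapped, 185.8 to 345.5 CPM and 133.6 to 254.1 CPM. In this list 2 of 10 genes tested were called, both lower (4 lower by DESeq2 with the block, SLC1A4 among them), and 9 of 10 had a negative log2 fold change, as did 49.9% of all genes without the block. SLC1A4, not called, had a log2 fold change of -0.63, with groups that did not overlap (11.5 to 14.5 CPM in WT and 7.80 to 9.14 CPM in LSD1 KO), and SLC6A9 one of -0.39.

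The list of aminoacyl-tRNA synthetases also held XPOT, which is not a synthetase. Of its 13 genes, 0 were called by either edgeR model, with 0 at an unadjusted p under 0.05. DESeq2 called 0 without the block and 1 with it, WARS1, which was lower (q value 0.0319). A negative log2 fold change was found for 12 of the 13, with a median of -0.13, and the 2 with the largest values were WARS1 (-0.38) and MARS1 (-0.27). Enzymes of amino acid synthesis and one-carbon metabolism had 0 of 11 called by either edgeR model, with 1 at an unadjusted p under 0.05 and a median of -0.12. DESeq2 called 0 without the block and 2 with it, MTHFD1L and PHGDH, both lower. MTHFD1L, the mitochondrial formate producer, was 95.3 to 105.6 CPM in WT and 68.7 to 86.3 CPM in LSD1 KO, a log2 fold change of -0.37 that neither edgeR model called. ALDH1L2 had a log2 fold change of -0.35.

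In the list of ATF4 partner factors, which also held ATF6 and XBP1, 1 of 8 genes was called, CEBPB, which rose. It had 58.3, 183.3 and 128.8 CPM in WT and 102.8, 382.8 and 237.0 CPM in LSD1 KO. As for DDIT4, replicate 1 was lowest and replicate 2 highest in both groups, and the ranges of the groups overlapped. The log2 fold change of CEBPB was 0.92 with the block (standard error 0.091, q value 0.00840 from edgeR), and within the pairs it was 0.82, 1.06 and 0.88. JDP2 and ATF5, not called, had log2 fold changes of -0.40 and -0.30.

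Of 12 tested stress effectors downstream of ATF4, 3 rose and 0 fell, and DESeq2 with the block called 5 higher. GDF15, a stress-induced cytokine, had 80.7, 133.2 and 90.8 CPM in WT and 191.7, 165.2 and 278.7 CPM in LSD1 KO, and rose by 1.06 on the log2 scale (q value 0.0805, standard error 0.21, edgeR with the block). The pairs were uneven, at 1.25 in pair 1, 0.31 in pair 2 and 1.62 in pair 3, and DESeq2 with the block gave it a q value of 0.109. VEGFA, the angiogenic growth factor, rose by 0.45 (q value 0.0732) and KLHL24 by 0.67 (q value 0.0386), both from edgeR with the block. The groups did not overlap for GDF15 and VEGFA but did for KLHL24. CEBPD and BBC3, not called, had log2 fold changes of -0.76 and 0.52, and BBC3 had a q value of 0.0458 by DESeq2 with the block.

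The list of eIF2alpha kinases and phosphatases also held EIF2S1, GCN1, DELE1, OMA1 and DNAJC3. Of its 11 genes, 0 were called by edgeR or DESeq2, each with and without the block, with 0 at an unadjusted p under 0.05. PPP1R15A, the stress-induced phosphatase subunit that is itself a target of the response, was 33.5 to 54.7 CPM in WT and 28.1 to 45.9 CPM in LSD1 KO, a log2 fold change of -0.32. DNAJC3 had one of -0.24. For the ER chaperones and degradation factors driven by ATF6 and XBP1, 1 of 13 was called. CRELD2 fell by 0.50 on the log2 scale (q value 0.0539 from edgeR with the block), from 48.6, 77.1 and 45.6 CPM in WT to 34.5, 51.6 and 33.9 CPM in LSD1 KO. SDF2L1 and PDIA4, not called, had log2 fold changes of -0.48 and -0.31, with q values of 0.0222 and 0.0613 by DESeq2 with the block, and 10 of the 13 were negative.

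**Figure D4:**
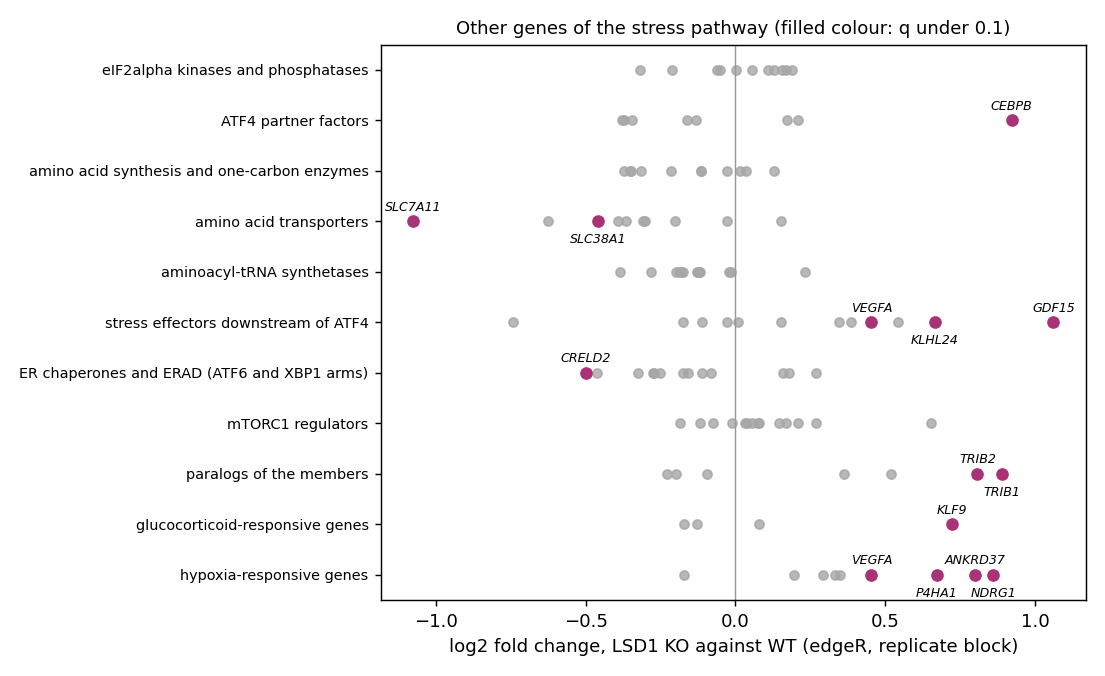
Log2 fold change between LSD1 KO and WT from edgeR with the replicate block (x axis) for the tested genes of 11 lists (y axis), 1 point per gene, with VEGFA in 2 lists. Coloured and labelled points have a q value under 0.1. The point of SLC7A11 at -1.08 is furthest to the left and that of GDF15 at 1.06 furthest to the right.

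DDIT4 acts on mTORC1, so a list of mTORC1 regulators was examined, which also held MTOR, RPTOR and TFEB. Of its 14 tested genes, 0 were called by edgeR or DESeq2, each with and without the block. At an unadjusted p under 0.05 there were 0, and the median log2 fold change was 0.053. DEPTOR and CASTOR1 had the largest values, 0.66 and 0.29. These mRNA levels do not report on mTORC1 activity, which was not measured in these libraries. Of the paralogs of the 10 genes, 2 of 7 tested were called, and both were relatives of TRIB3. TRIB1 rose from 200.2, 248.6 and 230.6 CPM in WT to 416.4, 379.9 and 461.6 CPM in LSD1 KO (log2 fold change 0.89, standard error 0.11, q value 0.0157 from edgeR with the block). TRIB2 rose from 14.1, 18.7 and 19.6 CPM to 25.5, 31.5 and 34.4 CPM (log2 fold change 0.81, q value 0.0181). The groups did not overlap for either gene, whereas TRIB3 had a log2 fold change of -0.29. DDIT4L, the paralog of DDIT4, had 5.14, 9.77 and 9.91 CPM in WT and 6.01, 20.0 and 11.8 CPM in LSD1 KO and was not called. SESN1 had a log2 fold change of 0.36, also not called.

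Because DDIT4 answers to low oxygen and to glucocorticoids, genes of those responses were examined too. Beside 1.05% higher and 0.549% lower among all genes, 4 of 9 tested hypoxia-responsive genes rose and 0 fell. They were NDRG1 (log2 fold change 0.86, q value 0.0878), ANKRD37 (0.80, q value 0.0582), P4HA1 (0.67, q value 0.0222) and VEGFA, each from edgeR with the block. P4HA1, a subunit of the collagen prolyl hydroxylase, had 60.3, 81.6 and 72.1 CPM in WT and 86.5, 144.3 and 114.9 CPM in LSD1 KO, without overlap. NDRG1 had 170.2, 344.1 and 359.7 CPM in WT and 267.0, 961.6 and 492.7 CPM in LSD1 KO, with overlap. Its log2 fold change was 0.53 with the block when pair 2 was left out and 0.36 without the block when LSD1 KO replicate 2 was left out, and DESeq2 with the block gave it a q value of 0.136. KDM3A and EGLN3, not called, had log2 fold changes of 0.33 and 0.30. Of 4 tested glucocorticoid-responsive genes 1 was called, KLF9, a zinc finger factor, which rose by 0.72 (q value 0.0344 from edgeR with the block). FKBP5 and TSC22D3, also among the 4, were not called. Their log2 fold changes were 0.085 and -0.066 without the block, and 0.080 and -0.17 with it. Whether low oxygen or glucocorticoid signalling had a part in the DDIT4 difference was not tested.

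Over the 6 libraries, the genes with the pattern most like that of DDIT4 were PLEKHB1, ENSG00000266086, LAT2, ACBD4 and ANGPTL4, out of 10348 genes with a mean of at least 10 CPM. Likeness was measured as the root mean square difference in centred log2 CPM, which was 0.155 for PLEKHB1 and 0.188 for ANGPTL4. ANGPTL4, a secreted inhibitor of lipoprotein lipase, had 13.7, 45.1 and 27.8 CPM in WT and 31.4, 75.6 and 43.7 CPM in LSD1 KO. It was lowest in replicate 1 and highest in replicate 2 of each group, an order that picking by likeness favours. PLEKHB1, the closest gene, was highest in replicate 3 of LSD1 KO, at 43.4 CPM against 42.2 CPM in replicate 2. Its groups did not overlap, unlike those of DDIT4. For the mean of the other 9 genes the closest were ERI1, TMEM87A, TTC28-AS1, HAUS2 and LONRF1, with root mean square differences from 0.047 to 0.059.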

How the data were processed

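RNA-seq of 3 WT and 3 LSD1 KO HCT116 libraries was analysed. The authors trimmed read pairs with Trimmomatic 0.39, quantified them with Salmon 1.4.0 (versions from the submitters' processing notes) against GENCODE release 36 on GRCh38, and deposited expected counts per gene, rounded to whole numbers and not scaled. The step from transcripts to genes is not given in the sources used here. Ensembl identifiers were matched to symbols by their stable part for 58395 of 60240 genes.

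Libraries were grouped by their titles. Counts were compared with edgeR 4.0.16 in R 4.3.3 (TMM, filterByExpr, quasi-likelihood test, Benjamini-Hochberg q value under 0.1, the paper's threshold), which tested 17672 genes, and, as an alternative, with DESeq2 1.42.0, the authors' tool. Each standard error was the absolute log2 fold change over the square root of F. The comparison was repeated with a replicate block. Deviations from the group mean correlated across genes at 0.404 to 0.553 for same-numbered WT and LSD1 KO libraries and at -0.516 to 0.0454 for the others. The numbers, which come from the titles, were therefore taken to pair the libraries.

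The 10 genes and the lists were chosen with earlier results of these data known. Of the lists, the text names the genes called in either edgeR model and the 2 others with the largest absolute log2 fold change at a mean of at least 1 CPM. Likeness to DDIT4 and the pair medians over all genes used log2(CPM + 0.5). Gene positions and promoter sequences are from RefSeq on GRCh38.p14, and exon overlaps from GENCODE v44lift37. One endothelial marker, PECAM1, could not be matched by symbol. Alternatives were other size factors, filters, thresholds and tools, the block, and leaving out libraries or pairs. The steps were tested on simulated data. Limits given by counts cover counting error only.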

Additional observations from a re-analysis of the deposited data

How the results depend on the processing

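The call of KDM1A held in all 16 alternatives, with log2 fold changes from -3.01 to -2.95. The number of genes called between LSD1 KO and WT, 1, was unchanged with other size factors, with a minimum of 10 counts per library and at a q value under 0.05. It was 114 when all genes with any counts were tested, 95 with DESeq2, 282 with the replicate block, 593 with DESeq2 and the replicate block, and 1 to 26 when single libraries were left out. With the replicate block it was 428, 1055 and 198 without pairs 1, 2 and 3. Of the wider stress genes, 0 were called without the block, and the count was also 0 without each single library in turn. It was 3 when every gene was kept, 3 with DESeq2, 13 with the replicate block, 22 with DESeq2 and the replicate block, and 14, 32 and 8 with the replicate block without pairs 1, 2 and 3. The cause of these shifts was not tested. The median log2 fold change of the 10 stress response genes ran from -0.35 to -0.21 over 16 alternatives. Of the values of single genes under these alternatives, 152 moved by less than the SD of the 3 pair differences. The 8 others, all with a library left out, belonged to DDIT4, TRIB3 and PSAT1, and ATF3 and DDIT3 changed sign in some alternatives. For CHAC1, ATF3, DDIT3 and SESN2 the SD of the pair differences was larger than the log2 fold change itself in absolute size. Staying within it therefore says little for these genes. Genes with a replicate number term were 5121 to 8208 in the 6 alternatives, with 4 of the 10 genes called in 5 of them and 2 at a q value under 0.05. With 3 libraries a group, the standard errors of the log2 fold change were largest for DDIT4 (0.37) and CHAC1 (0.34) without the block, and CHAC1 had the fewest counts, 60 to 193.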
